A study of Homo sapiens with 2 samples.

Results

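The regions described here are the H3K4me3 peaks that lie in the most peak-dense stretches of the autosomes of HEC-1-B cells, a widely used line from a human uterine (endometrial) adenocarcinoma. Chromosomes 1 to 22 were cut into bins of 1 Mb, and each wild-type peak was placed by its summit, the point of highest signal. A bin was called dense when it held 30 or more wild-type peaks. By this rule 80 of the 2347 bins with at least 1 wild-type peak were dense, and they held 3036 of the 19058 autosomal wild-type peaks, or 15.9%. The other 16022 peaks lay in 2267 sparser bins. H3K4me3 was measured by chromatin immunoprecipitation and sequencing in 1 library of wild-type cells and 1 library of ZNF143 knockout cells, with 1 peak list for each. The labels give the same culture conditions for both genotypes and name no treatment. The labels give the knockout only as ZNF143KO and do not say whether it is a single clone. With 1 library per genotype no difference below has a replicate check, and no test between genotypes was made. Intervals cover counting error within a library.

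Trimethylation of lysine 4 on histone H3 marks nucleosomes around the start sites of active genes, and it is laid down mainly at CpG-rich promoters by the SET1 and MLL enzyme complexes. The start site itself is often free of nucleosomes, so the mark at a single promoter can appear as a pair of peaks with a valley between them. Gene-rich chromosomes, of which chromosome 19 is the best known, carry many promoters per megabase. ZNF143 is a zinc-finger transcription factor that binds close to many start sites and has been linked to contacts between promoters and distal elements.

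The dense bins were spread unevenly over the chromosomes. Chromosome 19 held 21 of them, with 814 peaks, which was 59.0% of that chromosome's wild-type peaks. Chromosome 17 followed with 12 bins and 435 peaks (35.8%), chromosome 1 with 8 bins and 289 peaks (14.6%), and chromosomes 11 and 16 with 7 bins each, holding 289 (29%) and 293 peaks (33.0%). The short, gene-rich chromosomes 16, 17 and 19 thus had the highest shares of their peaks in dense bins. Chromosomes 13, 15, 18, 20 and 21 had no dense bin. Of the 80 bins, 47 stood next to another dense bin, in 18 runs. The longest run was of 5 bins at the tip of the short arm of chromosome 16, from position 1 to 5000000, with 197 wild-type peaks. Runs of 4 bins lay on chromosome 19 from 1000001 to 5000000 with 164 peaks and from 10000001 to 14000000 with 135 peaks, and on chromosome 11 from 64000001 to 68000000 with 168 peaks. Positions are those of build hg19, counted from 1.

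**Figure D1:**
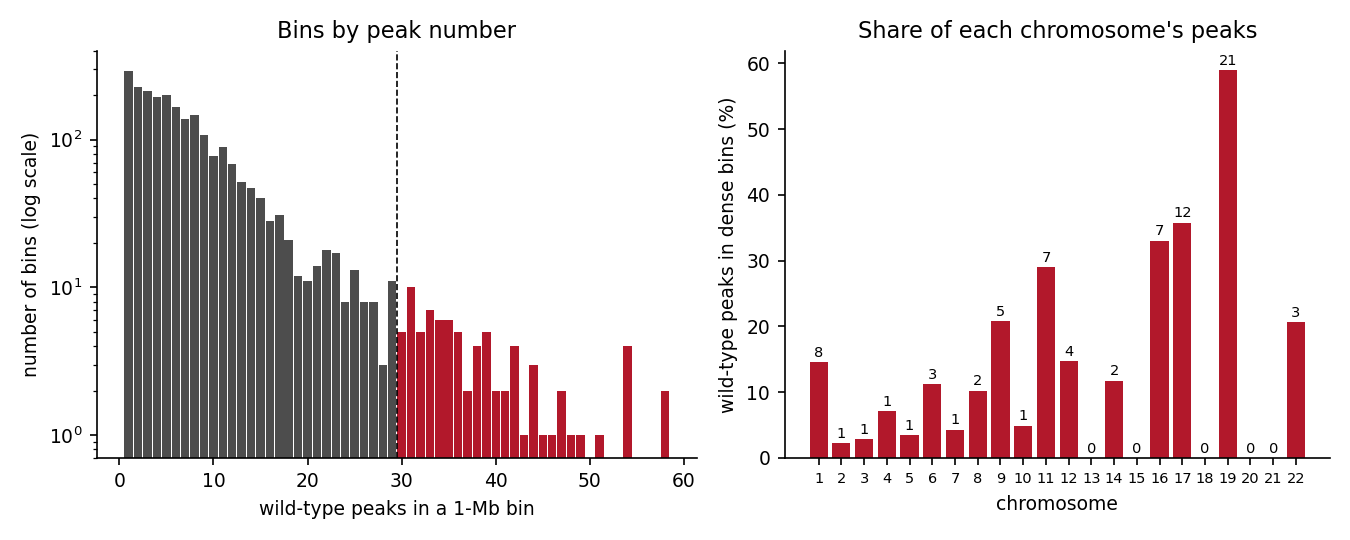
Left, the number of 1-Mb bins (log scale) by the wild-type peaks they hold, with the 80 dense bins in red right of the dashed line. Right, the percent of each chromosome's wild-type peaks that lie in dense bins, with the number of dense bins above each bar; chromosome 19 reaches 59.0% with 21 bins and 5 chromosomes have none.

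The highest peak number, 58, was found in a pair of bins. These were chromosome 16 from 30000001 to 31000000 and chromosome 19 from 49000001 to 50000000. Bins with 54 peaks were chromosome 4 from 49000001 to 50000000, chromosome 11 from 1 to 1000000, chromosome 17 from 79000001 to 80000000 and chromosome 19 from 1000001 to 2000000. Next came chromosome 16 from 2000001 to 3000000 with 51 peaks, chromosome 17 from 7000001 to 8000000 with 49, chromosome 11 from 64000001 to 65000000 with 48 and, tied at 47, chromosome 1 from 1000001 to 2000000 and chromosome 11 from 65000001 to 66000000. The median dense bin held 36 wild-type peaks and the median sparser bin 6. The threshold did not fall in a gap of the distribution. Just inside it, 5 bins held 30 peaks, with a median width of 792.5 bp and a median fold of 11.8. Just outside it, 11 bins held 29 peaks, with a median width of 854 bp and a median fold of 11.3. One step further, 10 bins of 31 peaks had medians of 759 bp and 10.6. On the other side, 3 bins of 28 peaks had 770.5 bp and 9.28, so there was no clear step at the threshold.

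Close spacing follows in part from the rule and is given as a description. From a wild-type summit in a dense bin, the nearest other summit lay at a median distance of 4640 bp, against 18950 bp in sparser bins. Another summit stood within 2 kb of 42.1% of the dense-bin peaks and of 31.4% of the others. Within 10 kb the shares were 66.2% and 41.0%. Neighbours under 2 kb apart had similar distances and signal ratios in both settings, but differed in width. In dense bins there were 681 such neighbours with a median summit distance of 701 bp, and the weaker of each pair had a median of 0.520 times the summit signal of the stronger. In sparser bins there were 2626, with a median distance of 680 bp and a median of 0.50 times. The wider of the neighbours had a median width of 849 bp in dense and 947.5 bp in sparser bins, and the narrower one 372 and 386.5 bp.

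Wild-type peaks in dense bins were narrower. Their median width was 798.5 bp (95% interval of the median 773 to 822 bp), against 907 bp (896 to 917 bp) in sparser bins. Among the sparser bins the median was 928 bp (911 to 942 bp) in bins of 1 to 9 peaks, 899 bp (881 to 917 bp) in bins of 10 to 19 and 880 bp (853 to 900 bp) in bins of 20 to 29. Each denser class had the lower median, although the intervals of neighbouring classes of sparser bins overlapped. Wide peaks were less frequent, with 31 of 3036 (1.0%) reaching 2000 bp against 372 of 16022 (2.32%). Very narrow peaks were about as frequent, with 13.6% under 300 bp in dense and 13.5% in sparser bins. On 13 of the 17 chromosomes with a dense bin the median width was lower in dense than in sparser bins of the same chromosome, and the median of these differences was −67 bp.

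Width also differed by whether a peak had a close neighbour, which the rule on density makes more frequent in dense bins. The part of close neighbours in the width difference was not tested. Peaks of dense bins with another summit within 2 kb had a median width of 610 bp, and those without one a median of 962 bp (939 to 988 bp). In sparser bins the values were 667 bp and 1029 bp (1018 to 1042 bp). Dense-bin peaks were narrower in both groups, and more of them belonged to the group with a close neighbour. When peaks within 1 kb of each other were merged, 2383 regions were left of the 3036 in the 80 bins, or 78.5%, and 31 of the bins still held 30 or more. The merged regions had a median width of 1115 bp there and 1145 bp in the sparser bins, where 83.9% of the regions were left. With dense bins chosen again on merged peaks, the order was the reverse, at 1157 and 1139 bp, a difference within its counting interval. Without merging, the knockout list showed the same order as the wild-type list. Its 3006 peaks in the dense bins had a median width of 926 bp and its 15903 other autosomal peaks 1026 bp.

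**Figure D2:**
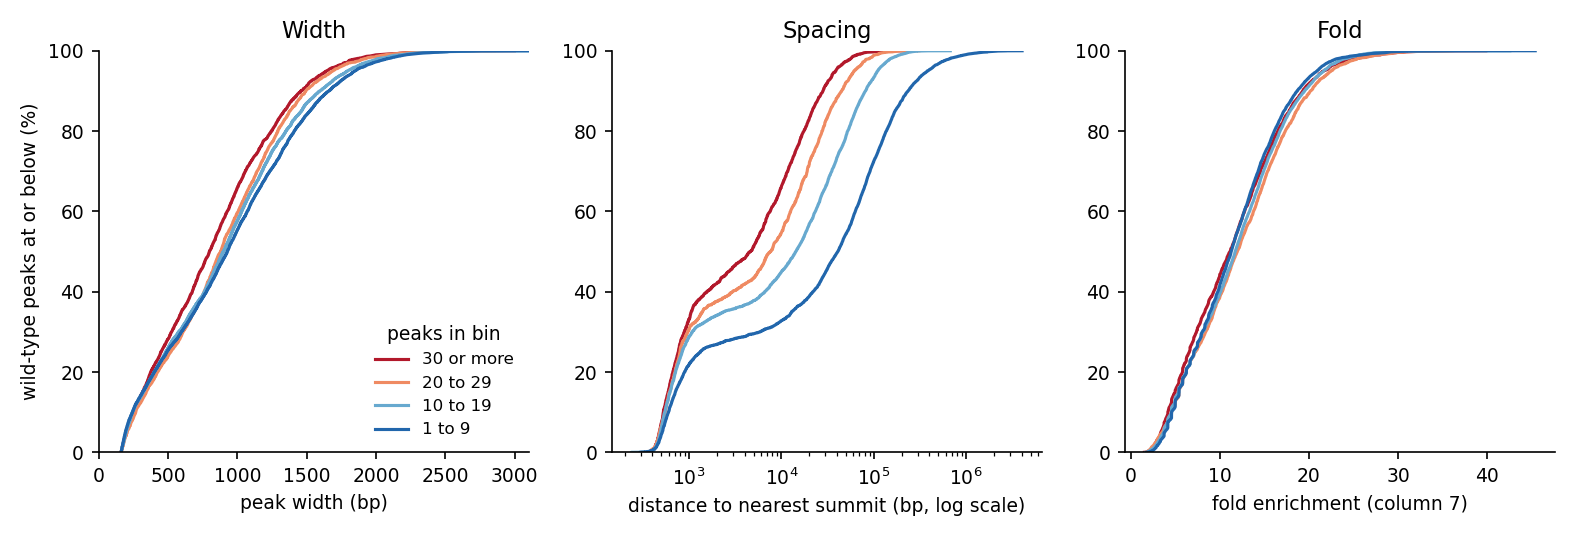
Percent of wild-type peaks at or below a width (bp), a distance to the nearest summit (bp, log scale) and a fold, in bins of 30 or more, 20 to 29, 10 to 19 and 1 to 9 wild-type peaks. The curves are far apart for spacing, slightly apart for width (medians 798.5 to 928 bp) and nearly together for fold.

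Enrichment differed less than width. The fold in the authors' lists is the signal at the summit over a local background rate. Its wild-type median was 11.2 (10.8 to 11.5) in dense and 11.5 (11.4 to 11.7) in sparser bins. This order did not hold clearly within groups split by close neighbours. Peaks with another summit within 2 kb had median folds of 7.85 (7.38 to 8.33) in dense and 7.89 (7.73 to 8.06) in sparser bins. Those without one had 13.5 (13.1 to 13.7) and 13.1 (13.0 to 13.3). The part of close neighbours in the fold difference was not tested. The −log10 q, the authors' confidence value, had medians of 137 (128 to 149) and 139 (134 to 143), and these intervals overlapped. The pileup, which is the number of fragments stacked at the summit as recovered from the fold and p columns, had medians of 214 (198 to 229) and 207 (202 to 213) fragments. The local background rate recovered with it had a median of 18.4 (17.5 to 19.2) in dense and 17.2 (16.8 to 17.6) fragments per base in sparser bins. By rank within the wild-type list, the median dense-bin peak stood at the 47.7 percentile by fold, the 49.7 by −log10 q, the 50.8 by pileup and the 43.3 by width. In the knockout list the medians were 10.9 and 11.3 for fold and 391 and 378 fragments for pileup, in dense and sparser bins. Fragment numbers and rates are not scaled between the lists. Over 15888 autosomal pairs of 1 wild-type and 1 knockout peak, the knockout was higher by a median log2 ratio of 0.89 in pileup. For the local rate this median was 1.03.

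Fold did not change with density in one direction. Bins of 20 to 29 peaks had the highest wild-type median, 12.0 (11.6 to 12.3), followed by 11.7 (11.6 to 11.9) in bins of 10 to 19 and 11.3 (11.1 to 11.4) in bins of 1 to 9. Without the 3 bins described next, the dense-bin median was 11.4.

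The 80 bins were not of one kind. The bin medians of wild-type fold ran from 4.09 to 16.9, with a median of 11.3, and 77 of them lay at 7.07 or above. The highest belonged to chromosome 19 from 58000001 to 59000000, where the median pileup was also the highest, at 444 fragments. The remaining 3 bins had medians below 5: chromosome 10 from 42000001 to 43000000 with 4.09, chromosome 1 from 228000001 to 229000000 with 4.71 and chromosome 4 from 49000001 to 50000000 with 4.96. They also had the smallest median widths of the 80 bins, of 424, 394.5 and 459.5 bp. These 3 bins were singled out after their values were seen.

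**Figure D3:**
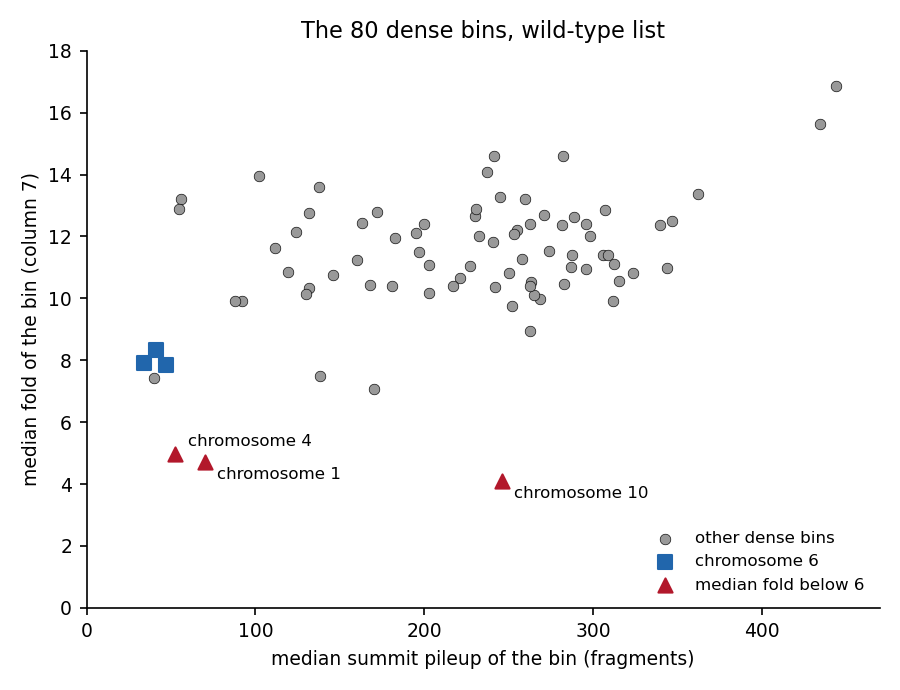
Median fold (vertical) against median summit pileup in fragments (horizontal) for the wild-type peaks of each of the 80 dense bins. The 3 bins with a median fold below 6 (red triangles) lie apart from the rest, and the 3 chromosome 6 bins (blue squares) sit at pileups of 34 to 47 fragments. Among the other bins, the chromosome 1 bin from 2000001 also lies there, at 40 fragments.

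In the chromosome 4 and chromosome 10 bins most peaks stood in tight chains, and a long peak-free stretch lay to one side of each bin's peaks. On chromosome 4, 30 of the 54 peaks lay between 49093628 and 49163915, a span of 70.3 kb. Their folds ran from 2.42 to 15.2 with a median of 4.41. A separate chain of 15 peaks, from 49634685 to 49660061, ended with the last peak of that bin. After it, no wild-type peak was called for 3.05 Mb. On chromosome 10, 24 of the 40 peaks lay between 42356029 and 42409411, a span of 53.4 kb, and 3.26 Mb without a wild-type peak preceded them. The local background rate in this chain reached 324 fragments per base, whereas in the 77 other bins the highest rate was 104. Pileups in this chromosome 10 chain ran from 26 to 1904 fragments. Both bins adjoin, as background knowledge, the centromere of their chromosome, where the assembly has gaps and satellite repeats. The part of repeated sequence in these chains was not tested.

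The chromosome 1 bin held a regular array. Of its 42 wild-type peaks, 16 had a neighbouring summit 2100 to 2300 bp away, and these lay between 228745995 and 228782336. They were alike in strength, with pileups of 42 to 76 fragments, folds of 2.83 to 6.21 and a median width of 294.5 bp. In the knockout list 16 peaks had such a spacing, 15 of them shared, with pileups of 83 to 173 fragments and folds of 2.44 to 4.78. The pileups are not scaled between the lists. All 16 wild-type peaks of the array were shared with the knockout list. With a tolerance of 50 bp to either side, 12 of the 41 gaps in this bin were alike, at 2177 to 2272 bp with a median of 2228 bp. No other dense bin had more than 6 alike gaps in the wild-type list. The other 26 peaks of the bin were stronger, with a median fold of 9.02. As background, the long arm of chromosome 1 carries the tandem genes of 5S ribosomal RNA, a component of the large ribosomal subunit transcribed by RNA polymerase III. The RefSeq gene table of GRCh38.p14 lists 17 numbered RNA5S genes on chromosome 1, of which 16 follow each other without another gene between them. The peaks were not assigned to these genes, since the table's build differs from that of the lists.

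The chromosome 6 bins were weak in a different way. From 26000001 to 27000000 the bin had 35 wild-type peaks with a median fold of 8.32 and a median pileup of 41 fragments. From 27000001 to 28000000 there were 33 peaks with 7.90 and 34 fragments, and from 31000001 to 32000000 there were 41 peaks with 7.85 and 47 fragments. All 109 peaks together had a median local rate of 4.23 fragments per base and none reached 2000 bp. Sparser bins of chromosome 6 had a median fold of 10.9 and a median pileup of 153 fragments. Such weakness was not limited to chromosome 6. The chromosome 1 bin from 2000001 to 3000000 had a median fold of 7.42 and a median pileup of 40 fragments. Low pileups at higher fold were seen on chromosome 5 from 140000001 (54.5 fragments, fold 12.9) and chromosome 9 from 132000001 (56 fragments, fold 13.2). As background, the short arm of chromosome 6 carries the largest cluster of replication-dependent histone genes and, beyond it, the major histocompatibility complex. The latter is repeated in the assembly as the chromosome 6 haplotype sequences, on which both lists also held peaks.

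Within the 10 bins ranked first by peak number (chromosome 1 taken from the tie) the strongest peak by fold is given as a description. Each is the highest of many peaks, so a high place in the whole list follows from the choice. The chromosome 4 peak was the lowest of the 10. In the chromosome 11 bin from 64000001 it was chr11:64863636-64864568, at a fold of 29.8 with 412 fragments in wild-type cells, and with 28.5 and 728 in the knockout. In the chromosome 19 bin from 1000001 it was chr19:1905342-1906189, with 28.8 and 333 fragments in wild-type cells and 24.8 and 607 in the knockout. These fragment numbers are not scaled between the lists. After the median log2 pileup ratio of all pairs was subtracted, the 2 peaks had ratios of −0.07 and −0.03. In the chromosome 4 bin the strongest peak, chr4:49336896-49337249, had a fold of 16.3, the 78.9 percentile of the list. The other 9 strongest peaks stood at the 97.5 percentile or above. One of them had a much lower rank in the knockout list. It was chr19:49223738-49224692, and its fold was 28 (99.4 percentile) in wild-type cells and 14.7 (72.6 percentile) in the knockout. A lower knockout rank is favoured by the choice of peaks on their wild-type fold.

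The widest members were low by fold and above the list median by pileup. The widest, chr17:7745166-7748163, spanned 2998 bp at a fold of 6.63 and with 287 fragments at the summit. Its knockout partner was 3253 bp wide with a fold of 5.76. Next came chr17:42296130-42299005, 2876 bp wide at a fold of 6.02 with 389 fragments, and chr1:155531577-155534304, 2728 bp wide at 6.55 with 526 fragments. The latter had a knockout partner of 2784 bp with a fold of 6.89. By fold all 3 stood between the 19.5 and 22.5 percentiles of the wild-type list, and by pileup between the 61.3 and 94.5 percentiles.

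Wild-type peaks of dense bins were found again in the knockout list slightly more often than others. An overlap of at least 1 bp was seen for 2932 of the 3036 (96.6%, 95.9 to 97.2%), against 94.4% of all autosomal wild-type peaks and 94.0% (93.7 to 94.4%) of those in sparser bins. The share was 92.8% in bins of 1 to 9 peaks, 94.4% in bins of 10 to 19 and 96.6% in bins of 20 to 29, so the dense bins did not exceed the class below them. Under a reciprocal overlap of 50% the shares were 84.5% in dense and 84.0% in sparser bins, a difference of 0.478 points that lay within its counting interval. In 25 of the 80 bins every wild-type peak was shared. The lowest share, 83.9%, was in the chromosome 1 bin from 2000001 to 3000000. From the knockout side, 2766 of 3006 peaks (92.0%, 91.0 to 93.0%) in the dense bins overlapped a wild-type peak, against 90.4% of all autosomal knockout peaks.

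The difference in sharing lay among weak peaks. In the lowest decile of the wild-type list by fold, 87.2% (83.4 to 90.4%) of 375 dense-bin peaks were shared, against 78.4% (76.2 to 80.4%) of 1474 others. In the next decile the shares were 87.9% (83.8 to 91.4%) and 74.1% (71.9 to 76.2%). From decile 4 upward all shares were at least 98.4% in both groups. Weak dense-bin peaks were not weak by every measure. In decile 2 by fold their median pileup was 50 fragments against 13 in sparser bins, and 63.2% against 42.7% had another summit within 2 kb. Ranked by pileup instead, the lowest decile still differed, with 67.8% (61.0 to 74.1%) against 56.6% (54.2 to 59.0%), and decile 2 had overlapping intervals.

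The 104 unshared members were narrow and shallow. Their median width was 213.5 bp and their median pileup 13 fragments, against 821.5 bp and 227 fragments for shared members. The lowest decile of the list by pileup held 64.4% of the unshared members. The 955 unshared peaks of sparser bins were much alike, with medians of 229 bp and 12 fragments and 75.1% in that decile. By fold the strongest unshared member was chr19:4304372-4304945, at 24.5 with 69 fragments. Next came chr17:7358861-7359584, at 21.0 with 149 fragments, and chr19:49250212-49250523, at 16.5 with 40 fragments. Just 1 of the 104 exceeded the median pileup of the list.

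The knockout list had nearly the same number of peaks in the dense bins. It held 3006 there, 99.0% of the wild-type number, and 15903 elsewhere on the autosomes, 99.3% of the wild-type number. The knockout count was higher in 32 bins, equal in 6 and lower in 42, and 9 bins fell below 30. A fall is favoured by the choice of bins on the wild-type count. When the bins were chosen on the knockout count instead, 78 passed, with 2974 knockout and 2947 wild-type peaks. The largest rise was in the chromosome 4 bin from 49000001, from 54 to 62 peaks. Chromosome 16 from 1000001 came next, with 34 and 40. A rise of 5 was shared by chromosome 11 from 66000001, chromosome 17 from 48000001 and chromosome 19 from 50000001. The largest fall, from 58 to 49, was on chromosome 16 from 30000001. A fall of 7 was shared by the chromosome 11 bins from 1 and from 64000001 and by chromosome 22 from 39000001.

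**Figure D4:**
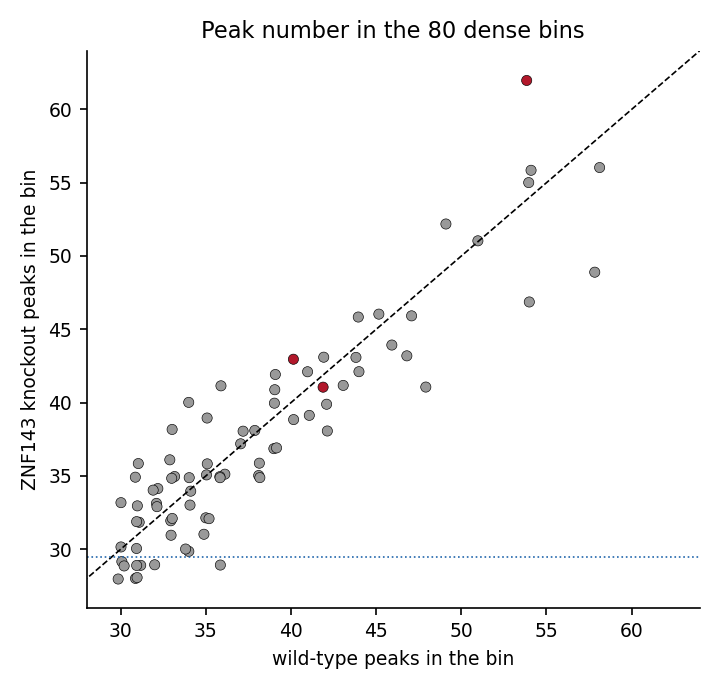
Knockout against wild-type peak number for the 80 dense bins, with points moved by up to 0.2 to separate ties. The dashed line marks equal numbers, the dotted line the threshold of 30, and red points the 3 bins with a median fold below 6; 32 bins lie above the dashed line and 42 below it.

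Some wild-type neighbours were called as a single peak in the knockout list. This was so for 362 of the 3036 dense-bin peaks (11.9%, 10.8 to 13.1%) and for 1650 peaks of sparser bins (10.3%, 9.83 to 10.8%). These shares are over all peaks, and close neighbours were more frequent in dense bins. Another summit stood within 2 kb of 42.1% of the peaks there, against 31.4% in sparser bins. The reverse, a knockout peak that shared its wild-type partner with another knockout peak, was seen for 37 of 3006 (1.23%) and 174 of 15903 (1.09%). The knockout library was the deeper, with a lowest background rate of 3.25 fragments per base against 1.40, and its narrowest peak was 174 bp wide against 162 bp. The part of depth in these merged calls was not tested.

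Fold in the knockout was compared over pairs in which each peak overlapped just 1 peak of the other list. There were 15888 such pairs on the autosomes, 2555 of them with the wild-type peak in a dense bin. Knockout fold was divided by wild-type fold on the log2 scale, and the median over all pairs was subtracted, since no scaling between the lists is stated. Its median was 0.002 in dense bins (−0.005 to 0.008) and −0.0004 in sparser bins (−0.004 to 0.003). The quartiles in dense bins were −0.11 and 0.10, and 93.3% of the pairs lay within 0.5 of 0. Bin medians of the 80 bins ran from −0.09 to 0.15, and 78 of them lay within 0.1 of 0. The exceptions were the adjacent chromosome 6 bins from 26000001, with 0.15, and from 27000001, with 0.13. Over all dense-bin pairs of chromosome 6 the median was 0.12, against 0.01 in its sparser bins. The 2 exceptions had low wild-type signal, with median pileups of 41 and 34 fragments and median local rates of 4.23 and 2.49. The chromosome 1 bin from 2000001, with a median pileup of 40 fragments, had a ratio of −0.07. The part of low signal in these ratios was not tested. The knockout peak was the wider in 83.6% (82.1 to 85.0%) of dense-bin pairs and 81.8% (81.2 to 82.5%) of the others, with median width ratios of 1.07 and 1.06.

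Changes beyond 2-fold in the centred fold were rare. Among all pairs, 0.743% rose and 0.592% fell by more than that. Among the dense-bin pairs 12 rose (0.470%) and 6 fell (0.235%). Both shares were below those of all pairs, in a single library of each genotype. The largest rise was at chr2:27485697-27485870, where the fold was 3.74 in wild-type and 12.0 in knockout cells and the pileup 8 and 57 fragments. Next came chr17:46805834-46806050, with folds of 4.58 and 13.5 and pileups of 10 and 59, and chr1:6320709-6321153, with folds of 4.58 and 13.2 and pileups of 10 and 124. All 3 were near the lowest pileup called in wild-type cells, which was 7 fragments. Pileups in this paragraph are not scaled between the lists. The largest fall was also on chromosome 2, at chr2:27070600-27071912, where the fold was 11.4 and 3.29 and the pileup 83 and 13 fragments. The same 1-Mb bin thus held the member with the largest rise and the member with the largest fall. The next falls were at chr9:130639378-130640324, with folds of 16.0 and 6.59 and pileups of 83 and 27, and at chr14:105947467-105948018, with folds of 6.75 and 2.87 and pileups of 31 and 20. The knockout peak of the largest fall was 219 bp wide, against 1313 bp in wild-type cells.

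By pileup the dense bins differed slightly from the pooled sparser bins. The centred log2 ratio of pileup had a median of 0.05 (0.04 to 0.07) in dense bins and −0.01 (−0.016 to −0.005) in sparser bins. Bins of 20 to 29 peaks had 0.04 (0.03 to 0.06), an interval that overlapped that of the dense bins. The local background rate moved with it, with medians of 0.05 and −0.01. Beyond 2-fold, 2.5% of all pairs rose and 1.99% fell by pileup, and in dense bins 60 pairs rose (2.35%) and 35 fell (1.37%). On 15 of the 17 chromosomes with a dense bin, the median was higher in dense than in sparser bins of the same chromosome, with a median difference of 0.06 and a range from −0.08 to 0.50. Some of these differences were close to 0, such as 0.004 on chromosome 19. The largest differences, 0.50 on both chromosomes 4 and 10, came from the single dense bin of each, described above.

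On several chromosomes the dense bins lay on the same side of 0 by pileup as the sparser bins of that chromosome. The chromosome 8 bins had medians of −0.29 and −0.28 where the sparser bins of that chromosome had −0.36. Chromosome 9 had −0.13 over its 161 dense-bin pairs and −0.31 over the others, and chromosome 16 had 0.19 and 0.17. The lowest of the 80 bins was chromosome 11 from 1 to 1000000 with −0.58 over 39 pairs, whereas the 7 dense bins of that chromosome together had −0.08. In this bin the fold went the other way, with 0.09. The median local rate, not centred, was 23.8 fragments per base in wild-type and 31.3 in knockout cells. That rise was smaller than the median log2 rate ratio of 1.03 over all pairs. The highest bins were those on chromosome 4 with 0.51 and chromosome 10 with 0.47, where the fold medians were 0.01 and −0.01.

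**Figure D5:**
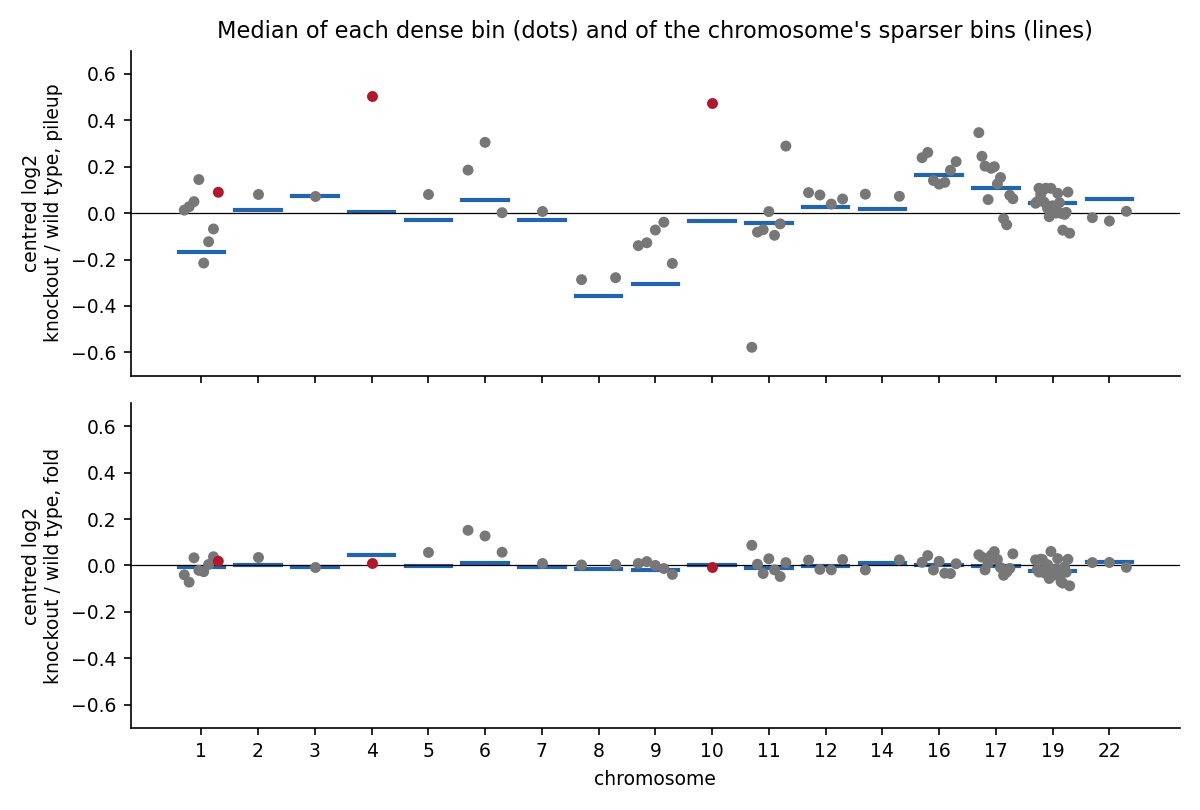
Median centred log2 ratio of knockout to wild type for each of the 80 dense bins (dots, in order along each chromosome, red where the median fold is below 6) and for the sparser bins of the same chromosome (blue lines), by pileup (top) and fold (bottom). By pileup the bins run from −0.58 to 0.51, by fold from −0.09 to 0.15.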

How the data were processed

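The authors deposited 1 peak list per library in the 10-column narrowPeak layout, without headers. Per the submitters' processing notes, Bowtie2, MACS2, SAMtools 1.12 and deepTools were used with build hg19 (GRCh37); a control library, filters and scaling are not given in the sources used here. The deposited fold (column 7, a ratio), −log10 p and −log10 q (columns 8 and 9) and score (column 5, not used further) are the authors' values for each peak. Peak names differ in prefix between lists, so each library appears to have been called by itself.

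Summit pileup and local rate were recovered as the whole number and rate for which the fold equals pileup plus 1 over rate plus 1 and the p-value is the Poisson upper tail. All peaks had a solution, with relative errors of at most 1.76e-05 (wild type) and 2.67e-05 (knockout), and 100% of pileups were recovered in simulated autosomal lists. The lowest rates, 1.40 and 3.25 fragments per base, are the only measure of depth used. Overlaps were checked against bedtools 2.31.1. Shares carry Clopper-Pearson 95% intervals and medians carry order-statistic 95% intervals from the binomial distribution, for counting error only. Peaks of 1 library are not replicates, so no test was made. Called means a centred log2 ratio beyond 1 in size.

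The members, comparisons and named items were chosen with earlier results of these data known. Named were the 10 densest bins (and a tie), the bins with the largest rises and falls in peak number (ties included), the strongest peak of each of the 10 bins, the 3 widest members, the 3 highest and 3 lowest pairs by fold and the 3 strongest unshared members. Genes in the bins were not analysed here, since no hg19 annotation was used. Computations ran in Python 3.11.15 with scipy 1.17.1, numpy 2.4.6 and pandas 2.3.3, and plots in matplotlib 3.10.9.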

Additional observations from a re-analysis of the deposited data

Results flagged for a closer look

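Dense bins also occurred outside chromosomes 1 to 22, in data that no comparison above uses. The sources used here give no control library to set them against. Counted in the same way, 5 bins of the wild-type list and 7 of the knockout list held 30 or more peaks on other sequences. On chromosome X these included the bins from 48000001 to 49000000, with 32 wild-type and 30 knockout peaks, and from 153000001 to 154000000, with 37 in each list. On chromosome 6 haplotype sequences, 2 bins of the wild-type list and 1 of the knockout list passed. In the wild-type list those 2 held 30 and 39 peaks, with median pileups of 46.5 and 50 fragments, near the 47 fragments of the dense chromosome 6 bin from 31000001. An unlocalized sequence of chromosome 9 held 48 wild-type and 63 knockout peaks, with median folds of 3.59 and 3.05. The other 3 bins of the knockout list held 30 to 46 peaks and passed in that list only. All had low median folds. These were 3.35 on chromosome X from 61000001, 2.65 on chromosome Y from 58000001 and 5.19 on an unplaced sequence. The source of these peaks was not tested.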

How the results depend on the processing

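Of 88 values under alternatives, 69 stayed within the counting interval of the reported value (for counts of bins and peaks, within 1.5 times). Differences are dense minus sparser bins. The number of dense bins became 123 at 25 or more peaks, 25 at 40 or more and 31 after merging peaks within 1 kb, with 1170 and 1091 member peaks in the last 2. The width difference of −108.5 bp became −71 bp with bins shifted by 500000 bases and −67 bp within chromosomes, and it reversed to 18 bp when peaks were merged and the dense bins chosen again on merged peaks (1157 against 1139 bp), a value within its counting interval. On the same 80 bins the merged medians were 1115 and 1145 bp. The fold difference of −0.39 became −1.15 at 40 or more peaks. The −log10 q difference of −1.87 became 10.52 with shifted bins and 9.99 without the chromosome 6 bins. The spacing difference of −14310 bp became −15557 bp at 25 or more, −13211 bp at 40 or more and −25020 bp after merging. The difference in shared share, 2.53 points, became 0.478 points under a reciprocal overlap of 50%. The difference in log2 fold ratio, 0.002, became 0.065 by pileup, 0.065 by −log10 q, 0.24 points by percentile rank and 0.013 within chromosomes. The cause of these changes was not tested. Removing the 3 bins of low fold or those of chromosome 6 was chosen after seeing the data; without the former the fold difference was −0.13. The knockout number of peaks stayed between 97.9% and 102% of the wild-type number. No paired analysis was possible because the design has no replicates (1 library per genotype), so none could be left out either. Gene content of the bins was not run, for want of an hg19 annotation. Depth limits the weak end: an unshared peak of low pileup does not show absence of the mark.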
